A study of Mus musculus with 6 samples.

Results

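Mouse genes whose symbol is Zfp followed by a digit encode zinc finger proteins, and they are examined here in liver that lacked, or carried, the mitochondrial ubiquitin ligase Mul1. All rows of the deposited table with such a symbol were taken, leaving out pseudogenes with -ps in the symbol, which gave 52 of the 3542 genes in the table. Liver mRNA came from 3 wild-type Mul1(+/+) mice and 3 whole-body knockout Mul1(−/−) mice, bred from heterozygous parents, and all 6 had eaten a high-fat diet (HFD) from the age of 8 weeks, for 16 weeks. The study used animals of both sexes; sex and strain are not given for these 6 libraries, and the 5 sex-linked genes that were looked up are not in the table. The labels name the tissue as liver and the cell type as hepatocytes, while the protocol describes whole tissue. Of 8 hepatocyte markers only Hnf4a and Apob are in the table, so the cell type could not be checked against the others. The question for each gene was whether its transcript level differed between the genotypes.

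Most Zfp proteins bind DNA through arrays of C2H2 fingers, short loops in which a pair of cysteines and a pair of histidines hold a zinc ion. A large class also carries a KRAB box, a stretch near the start of the protein that recruits Trim28 (KAP1), through which the histone methyltransferase Setdb1 and HP1 proteins silence retroelements and other target sequences. KRAB genes lie in clusters of near-copies that arose by repeated duplication and differ between mammals. Zfp proteins without a KRAB box are mixed in kind and include activators, corepressors and proteins that bind RNA rather than DNA.

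The table holds only genes that the authors had selected as significant between the same libraries. The absolute log2 fold changes of its Zfp genes were all above 1, and counts of significant genes describe the table and are no independent evidence. Transcript levels are normalized read counts, which are read counts divided by 1 factor per library. Fold changes are differences of mean log2(normalized count + 1), Mul1(−/−) minus Mul1(+/+), with the limma test over all 3542 genes, Benjamini-Hochberg adjustment, and a threshold that asked for an adjusted p under 0.01 and a change of over 1 log2 unit either way. For 1 gene at a time, the smallest p that the exact two-sided permutation test over 3 and 3 mice allows is 0.1. Each library had 11932163 to 15385822 reads on table genes, and 1 read was worth 0.817 to 1.46 normalized counts. The targeted gene Mul1 had normalized counts of 3172, 3232 and 3423 in Mul1(+/+) and 1037, 965 and 1753 in Mul1(−/−) HFD-liver, so that 38.2% of the wild-type mean remained and replicate 3 of the knockout kept most.

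The promoters of members that were higher together are shown first, because 5 of them share a block of sequence although they lie on 3 chromosomes. RefSeq (GRCm38.p6) gave 55 promoter windows of 300 bases, 250 before and 50 after a transcript start, for 43 of the 52 Zfp genes. Each line below gives the 200 bases before a start, 5′ to 3′ on the strand of the gene, with the motifs CCAATCAG, which holds a CCAAT box, and CTGCCAGTC in capitals. Zfp970 is shown at chr2:177464542-177464741 (plus strand), Zfp972 at chr2:177925651-177925850 (minus), Zfp931 at chr2:178078426-178078625 (minus), Zfp932 at chr5:109996310-109996509 (plus) and Zfp950 at chr19:61140841-61141040 (minus).
Zfp970: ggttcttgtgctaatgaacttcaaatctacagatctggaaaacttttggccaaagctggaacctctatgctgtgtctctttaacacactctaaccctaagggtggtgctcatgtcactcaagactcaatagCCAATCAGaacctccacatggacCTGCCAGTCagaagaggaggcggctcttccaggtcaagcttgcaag
Zfp972: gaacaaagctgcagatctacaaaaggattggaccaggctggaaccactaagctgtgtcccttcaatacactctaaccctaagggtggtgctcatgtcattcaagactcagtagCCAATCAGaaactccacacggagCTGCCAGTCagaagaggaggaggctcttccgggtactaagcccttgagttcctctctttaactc
Zfp931: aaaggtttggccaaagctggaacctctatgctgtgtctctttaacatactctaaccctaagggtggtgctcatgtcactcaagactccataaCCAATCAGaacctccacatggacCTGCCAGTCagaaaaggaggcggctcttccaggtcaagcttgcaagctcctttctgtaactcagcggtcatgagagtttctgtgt
Zfp932: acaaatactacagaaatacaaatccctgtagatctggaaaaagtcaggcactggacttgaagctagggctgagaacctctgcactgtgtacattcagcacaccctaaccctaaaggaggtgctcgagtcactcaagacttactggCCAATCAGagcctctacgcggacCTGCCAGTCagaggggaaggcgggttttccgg
Zfp950: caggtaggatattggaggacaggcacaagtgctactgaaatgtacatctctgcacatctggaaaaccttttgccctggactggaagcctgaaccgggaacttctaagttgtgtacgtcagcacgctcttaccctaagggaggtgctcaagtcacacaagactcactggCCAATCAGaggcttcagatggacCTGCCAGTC
In local alignments of these stretches, Zfp970 and Zfp931 were identical at 155 of 161 positions (96.3%), Zfp970 and Zfp972 at 153 of 179 (85.5%), Zfp970 and Zfp950 at 130 of 173 (75.1%), and Zfp970 and Zfp932 at 139 of 191 (72.8%). All 5 genes carry a KRAB box and had higher means in Mul1(−/−) HFD-liver. Searched on both strands, CTGCCAGTC occurred in 6 windows of Zfp genes, all of them from these 5 genes, and in none of the 22 windows of Zfp genes with lower means. It occurred in 0.670% of the 32851 windows of all genes and in 5.91% of the 406 windows of all genes named Zfp and a number. CCAATCAG occurred in 12 of the 55 windows (21.8%), against 4.10% of all windows and 14.8% of those of all genes named Zfp. Of these windows, 10 were of Zfp genes with higher means and 2 of genes with lower means, Zfp385a and Zfp526. Both motifs together were in 52 windows of all genes, from 44 genes of which 14 are Zfp genes. In the table, 7 of these 44 genes were present and 6 had higher means, these 5 and Gm14403, while Aldh1l1 had a lower one. Both motifs were picked after the sequences had been read and the directions were known, so these counts are descriptions.

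A second set shows promoters that hold a GC box. The hexamer GGGCGG, the core of the GC box, searched on both strands, was in 15 of 22 windows of Zfp genes with lower means (68.2%) and in 10 of 33 windows of those with higher means (30.3%), against 35.7% of all windows and 43.6% of all windows of genes named Zfp. Below, the hexamer is in capitals before the starts of Zfp526 (chr7:25221225-25221424, plus), Zfp871 (chr17:32788288-32788487, minus) and Zfp618 (chr4:62965367-62965566, plus). The first 2 fell in Mul1(−/−) HFD-liver and the last one rose.
Zfp526: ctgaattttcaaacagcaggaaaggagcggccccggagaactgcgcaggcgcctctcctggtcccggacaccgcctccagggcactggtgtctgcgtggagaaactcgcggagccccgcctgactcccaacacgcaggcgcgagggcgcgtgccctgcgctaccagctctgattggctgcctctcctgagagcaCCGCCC
Zfp871: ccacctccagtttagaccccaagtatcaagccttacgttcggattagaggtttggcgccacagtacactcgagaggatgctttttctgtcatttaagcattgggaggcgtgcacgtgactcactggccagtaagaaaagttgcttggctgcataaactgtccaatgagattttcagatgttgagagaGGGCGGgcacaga
Zfp618: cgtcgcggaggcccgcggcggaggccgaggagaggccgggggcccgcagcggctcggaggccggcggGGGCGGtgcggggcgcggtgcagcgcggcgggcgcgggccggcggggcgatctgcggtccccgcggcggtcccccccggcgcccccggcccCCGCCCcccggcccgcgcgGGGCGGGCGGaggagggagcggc
The stretch of Zfp618 holds 4 copies, some of them overlapping, and is 90% G and C. Zfp526 and Zfp871 hold 1 copy each, at 67% and 49% G and C. The median GC content of the 300-base windows was 61.8% for Zfp genes with lower means and 55% for those with higher means, and 52.7% for all genes. Another 6 motifs were chosen by name, and their shares are given for the windows of these Zfp genes, of all genes named Zfp and of all genes. The CCAAT box (CCAAT, which also counts every CCAATCAG) was in 45.5%, 47.5% and 37.4%, the ETS motif CCGGAAGT in 9.09%, 9.61% and 3.89%, and the TATA box (TATAAA) in 7.27%, 6.90% and 13.6%. For these 3 motifs the Zfp genes of the table lay nearer to all genes named Zfp than to all genes. The NRF1 motif was in 1.82%, 2.96% and 0.971%. The CRE TGACGTCA was in none of the 55 windows, in 3.69% and in 1.79%, and TGATGCAA, bound by ATF4 with C/EBP partners, was in none of the 55, in 0.246% and in 0.895%.

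Of the 52 Zfp genes, 30 had a higher and 22 a lower mean in Mul1(−/−) than in Mul1(+/+) HFD-liver. The share with higher means, 57.7%, was close to the 56.8% of all genes of the table. It was above the 48.1% of the protein-coding genes of the table, and 51 of the Zfp genes are protein-coding. At the threshold, 9 Zfp genes (17.3%) were differentially expressed, where 24.1% of the table and 20.9% of its protein-coding genes passed. Of these, 6 rose, against 16.7% of the table that passed as higher, and 3 fell, against 7.43% that passed as lower. Rescaling the libraries by the median ratio over the table turned this split to 4 higher and 15 lower, and rescaling by the total of the table to 5 and 11. With an adjusted p under 0.05, 49 Zfp genes passed, against 95.4% of the table, and with an unadjusted p under 0.05 also 49, against 96.4%. The groups did not overlap, with all 3 Mul1(−/−) values on one side of the Mul1(+/+) values, in 48 of the 52, against 90.3% of the table. The log2 fold changes ran from −2.28 for Zfp526 to 2.76 for Zfp618, with a median of 1.36 among the 30 higher genes and −1.47 among the 22 lower ones, where the table had medians of 1.67 and −1.43. The protein-coding genes of the table had medians of 1.51 and −1.43. Among annotated protein-coding genes, 51 of 394 Zfp genes (12.9%) were in the table, as were 2849 of all 21951 protein-coding genes.

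**Figure D1:**
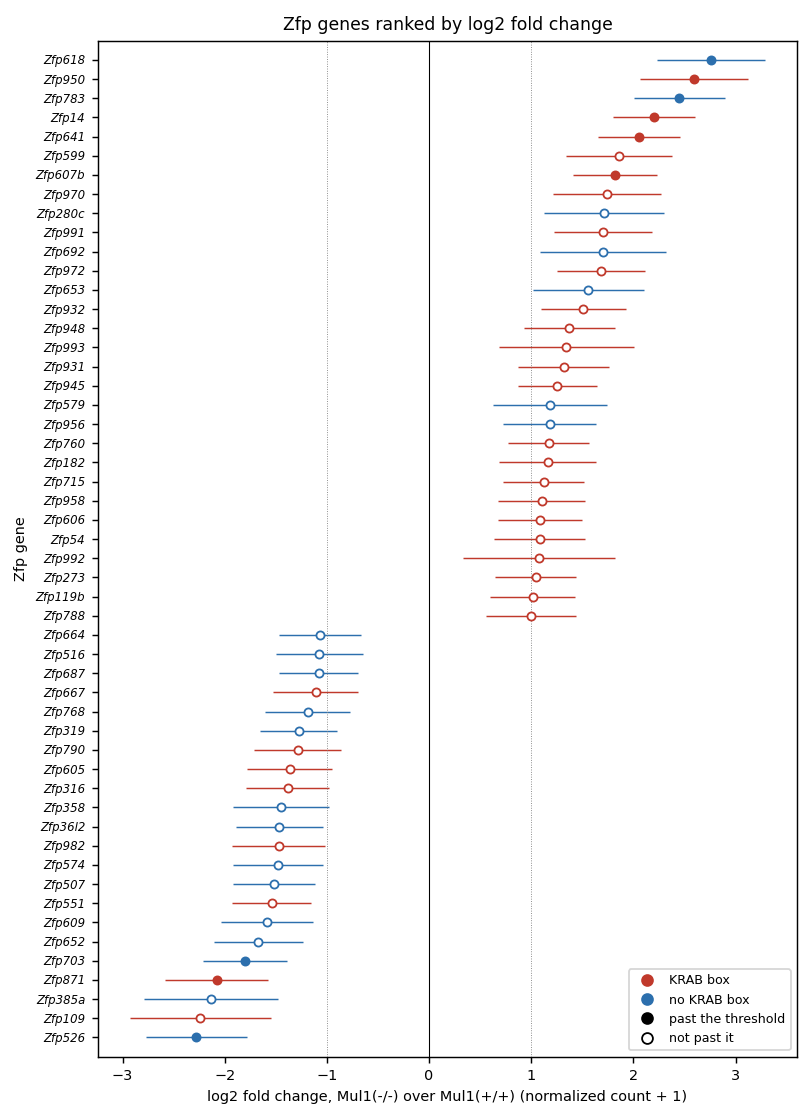
Log2 fold change (Mul1(−/−) over Mul1(+/+), normalized count + 1) of the 52 Zfp genes with bars of 1 standard error, in red for genes with a KRAB box and in blue for those without, filled where the gene passed the threshold. The 30 higher genes include 23 of the 31 with a KRAB box, and the 22 lower genes include 14 of the 21 without one.

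By count, the genes with and without a KRAB box divided differently into higher and lower. A KRAB box was found in 31 Zfp genes, of which 23 had higher and 8 lower means, and the median log2 fold change was 1.12. Of the 21 without one, 7 had higher and 14 lower means, with a median of −1.19. These 21 include Zfp783, a pseudogene with a higher mean, which has no coding sequence in which a KRAB box could be searched. At the threshold, 4 KRAB genes rose and 1 fell, and 2 genes without a KRAB box rose and 2 fell. Under the median ratio rescaling, which shifted the median of all genes of the table by −0.66, the medians were 0.46 and −1.85, and the counts of higher means stayed 23 and 7. No test was made between the classes, whose members are not replicates. Outside the family, 4 of 5 genes with a KRAB box but another name had higher means. Of the related families, 2 of 6 Zbtb genes, 1 of 4 Zscan or Zkscan genes and 1 of 2 CCCH genes named Zc3h had higher means, and none of these 12 passed the threshold.

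GC content and length of the transcript moved with direction in the table as a whole. Of 535 protein-coding genes whose longest coding transcript had a GC content under 45%, 75.9% had higher means, and of 2314 at 45% or more, 41.7% had. Of the 25 Zfp genes under 45%, 24 carry a KRAB box. Among KRAB genes under 45%, 20 of 24 had higher means, and among those at or above it, 3 of 7. Of the 20 genes without a KRAB box at 45% or more, 6 had higher means. Across the 52 Zfp genes the rank correlation of log2 fold change with GC content was −0.35, and with transcript length −0.11. Over the 2849 protein-coding genes of the table the values were −0.18 and −0.43. Within the Zfp genes with a KRAB box the correlation with GC content was −0.18, and within those without one also −0.18. These correlations are over genes of the same 6 libraries, and the part of base composition or length in the direction of the Zfp genes was not tested. With the number of fingers the rank correlation within the family was −0.01. The 15 proteins with 14 or more fingers had higher means in 11 cases, the 16 with 10 to 13 in 7, the 13 with 5 to 9 in 8, and the 7 with up to 4 in 3.

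**Figure D2:**
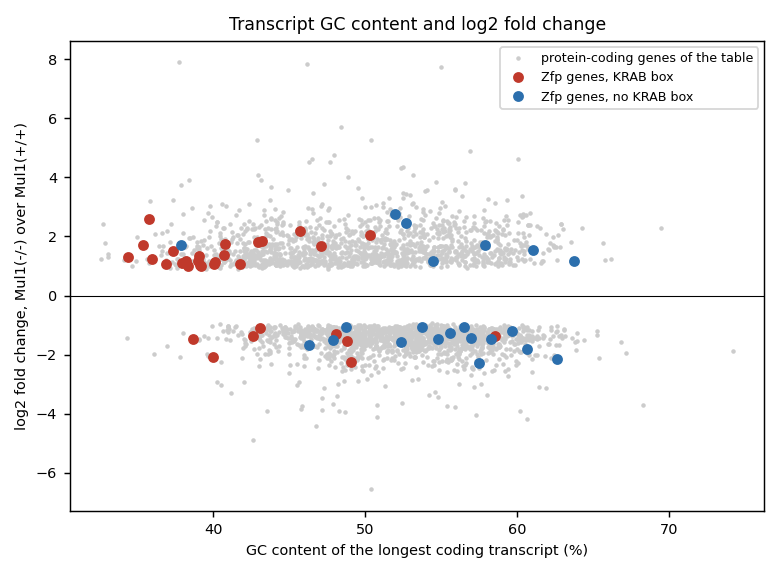
GC content of the longest coding transcript (%) against log2 fold change for the protein-coding genes of the table (grey) and the Zfp genes (red with, blue without a KRAB box). Most red points lie under 45% GC and above 0, where 75.9% of the grey genes also lie above 0, and the empty band around 0 is the authors' selection of genes.

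Zfp618 had the largest rise. Its protein is known as a partner of Uhrf2, a reader of hydroxymethylated cytosine. Zfp618 (ENSMUSG00000028358, chromosome 4, 62965573 to 63139708 of GRCm38 in GENCODE M21, plus strand) had normalized counts of 20.2, 8.86 and 16.3 in Mul1(+/+) and of 187, 110.2 and 52.7 in Mul1(−/−) HFD-liver. The groups did not overlap, and replicate 3 of the knockout was the lowest of its group. The mean rose from 15.1 ± 5.78 to 117 ± 67.4 (SD, n = 3), 7.70-fold, with a log2 fold change of 2.76 (SE 0.53, adjusted p = 0.00692).

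Zfp950, a KRAB gene with 17 fingers, rose almost as far at a much higher level. Zfp950 (ENSMUSG00000074733, chromosome 19, 61053840 to 61140840, minus strand) had counts of 209.9, 328 and 245 in Mul1(+/+) and of 2437, 2242 and 683 in Mul1(−/−), and replicate 3 of the knockout was far below the other two. The mean rose 6.85-fold, from 261 ± 60.5 to 1788 ± 961 (SD, n = 3), with a log2 fold change of 2.59 (SE 0.53, adjusted p = 0.00701). Zfp950 overlaps Grk5 on the opposite strand, and whether reads were counted by strand is not given in the sources used here.

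Zfp14, a KRAB gene with 13 fingers, had close counts in wild-type liver and no overlap with the knockout. Zfp14 (ENSMUSG00000053985, chromosome 7, 30036359 to 30051380, minus strand) had counts of 23.6, 26.6 and 29.4 in Mul1(+/+) and 140.3, 159 and 87.0 in Mul1(−/−). The log2 fold change was 2.20 (SE 0.40, adjusted p = 0.00658), a 4.86-fold higher mean.

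The other 3 rises were of genes with few reads. Zfp783 (ENSMUSG00000072653, chromosome 6, 47943171 to 47955913, plus strand), annotated as a transcribed unprocessed pseudogene, had counts of 2.53, 6.20 and 2.45 in Mul1(+/+) and 29.2, 24.5 and 17.6 in Mul1(−/−), a log2 fold change of 2.45 (SE 0.44, adjusted p = 0.00642). It overlaps its neighbour Zfp956 on the same strand, so that reads in the overlap cannot be told apart. Zfp641 (ENSMUSG00000022987, chromosome 15, 98285585 to 98296161, minus strand), a KRAB gene with 5 fingers, had counts of 5.90, 11.5 and 9.80 and of 46.8, 36.7 and 36.0, a log2 fold change of 2.05 (SE 0.40, adjusted p = 0.00692). Zfp607b (ENSMUSG00000057093, chromosome 7, 27689340 to 27706484, plus strand), a KRAB gene with 17 fingers, had counts of 7.59, 11.5 and 8.98 and of 32.1, 26.9 and 50.1, a log2 fold change of 1.82 (SE 0.41, adjusted p = 0.00816). Here replicate 3 was the highest of the knockout libraries, unlike in the other 5 rises. Rescaled by the median ratio, Zfp641 and Zfp607b missed the threshold (adjusted p = 0.0129 and 0.0430), and Zfp607b also missed it rescaled by the total of the table (0.0162) and with limma-trend (0.0145).

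The 3 falls were of genes at intermediate levels. Zfp526 (ENSMUSG00000046541, chromosome 7, 25221425 to 25227507, plus strand), with 13 fingers and no KRAB box, had counts of 262, 171 and 208 in Mul1(+/+) and 38.0, 24.5 and 82.6 in Mul1(−/−). The mean fell 4.42-fold, from 214 ± 45.8 to 48.3 ± 30.4 (SD, n = 3), and the log2 fold change was −2.28 (SE 0.49, adjusted p = 0.00776). Zfp871 (ENSMUSG00000024298, chromosome 17, 32765496 to 32788287, minus strand), the only KRAB gene to fall past the threshold, had counts of 713, 306 and 649 and of 99.4, 85.7 and 216, a log2 fold change of −2.08 (SE 0.51, adjusted p = 0.0094). Zfp703 is a corepressor that works with Groucho-type proteins, and its protein has no finger of the searched C2H2 pattern. Zfp703 (ENSMUSG00000085795, chromosome 8, 26977325 to 26981461, plus strand) had counts of 448, 383 and 520.2 and of 162, 87.0 and 148, a log2 fold change of −1.80 (SE 0.41, adjusted p = 0.00831). In all 3 genes the groups did not overlap, and in Zfp526 and Zfp871 replicate 3 of the knockout was nearest to the wild type. Zfp871 missed the threshold with a pseudocount of 0.5 (adjusted p = 0.0108), and both Zfp871 and Zfp703 did when rescaled by the total without the mitochondrial genome (0.0106 and 0.0105).

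**Figure D3:**
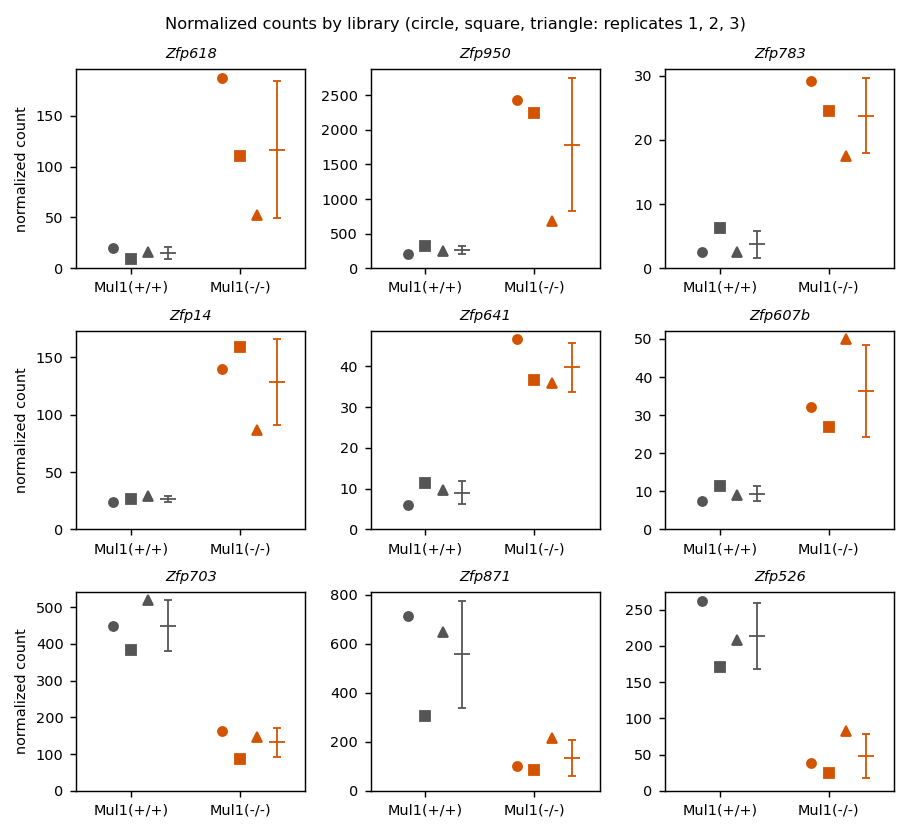
Normalized count of the 9 Zfp genes past the threshold in each library, Mul1(+/+) in grey and Mul1(−/−) in orange, with circles, squares and triangles for replicates 1 to 3 and the mean with its SD (n = 3) beside them. In every panel the groups do not overlap, as in Zfp14, where the wild-type values end at 29.4 and the knockout values begin at 87.0.

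None of the most abundant Zfp genes was past the threshold except Zfp950. The highest level was that of Zfp36l2 (ENSMUSG00000045817, chromosome 17, 84183931 to 84187947, minus strand), a CCCH protein that binds AU-rich elements and speeds the decay of mRNAs. Its counts were 4230.1, 3598 and 2336 in Mul1(+/+) and 1433, 839 and 1404 in Mul1(−/−). The groups did not overlap, and the log2 fold change of −1.46 (SE 0.43, adjusted p = 0.0142) missed the threshold. The other 3 genes of its family on the list, Zfp36, Zfp36l1 and Zfp36l3, are not in the table.

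Zfp970 (ENSMUSG00000078866, chromosome 2, 177464733 to 177478129, plus strand), a KRAB gene with 14 fingers, had nearly equal counts in wild-type liver, 434, 442 and 383, and widely spread counts of 2697, 1621 and 628 in the knockout. Its log2 fold change was 1.74 (SE 0.53, adjusted p = 0.0157). Per kilobase of transcript, its mean level over the 6 libraries was 659, next to 653 for Zfp36l2 and 338 for Zfp931. The order of the first 2 is within their spread.

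Zfp664 (ENSMUSG00000079215, chromosome 5, 124862691 to 124902693, plus strand), with 9 fingers and no KRAB box, had counts of 1444, 1158 and 1546 and of 484, 675 and 859, and a log2 fold change of −1.07 (SE 0.40, adjusted p = 0.0278). Zfp652 (ENSMUSG00000075595, chromosome 11, 95712673 to 95835115, plus strand), a repressor that works with corepressors of the ETO family, had counts of 1783, 965 and 1706 and of 643, 345 and 408, and a log2 fold change of −1.67 (SE 0.44, adjusted p = 0.0111). Its annotated span overlaps Phospho1 on the same strand, and 11.4% of its transcript stretches of 75 bases also occur in transcripts of other genes, most often of Phospho1. Phospho1 itself had counts of 219.98, 416 and 507 in Mul1(+/+) and 20.5, 2.45 and 106.3 in Mul1(−/−), a log2 fold change of −4.18 (SE 0.99, adjusted p = 0.00909), and its part in the value of Zfp652 was not tested.

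Of the 6 Zfp genes of the table that stand on the lists by known role, 5 had lower means, Zfp36l2 among them, and Zfp932 had a higher one. At the threshold 0 of them passed (limma), against 24.1% of the table. All 6 had an unadjusted p under 0.05, as had 96.4% of the table. Zfp385a (ENSMUSG00000000552, chromosome 15, 103313895 to 103340093, minus strand) binds RNA and is also a partner of p53. Its counts were 1193, 848 and 1118 in Mul1(+/+) and 371, 72.3 and 491 in Mul1(−/−), with replicate 2 of the knockout far below the rest, and its log2 fold change was −2.13 (SE 0.65, adjusted p = 0.0159). It was the only one in the table of 11 listed Zfp genes linked to RNA or ribosomes. Zfp516 (ENSMUSG00000058881), which activates brown fat genes such as Ucp1, had counts of 252, 148 and 228 and of 119.8, 115 and 65.0, with a log2 fold change of −1.07 (SE 0.43, adjusted p = 0.034). It was the only one in the table of 10 listed Zfp genes linked to fat cells or lipids.

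Zfp609, which binds the cohesin loader Nipbl, and Zfp687, which acts in a complex with Zfp592, were the 2 in the table of 18 listed Zfp genes that act at promoters or in chromatin complexes. Zfp609 had counts of 850.4, 421 and 813 in Mul1(+/+) and 311, 160.4 and 213 in Mul1(−/−), a log2 fold change of −1.59 (SE 0.45, adjusted p = 0.0133). Zfp687 had counts of 719.8, 480.0 and 669 and of 324, 309.8 and 242, a log2 fold change of −1.08 (SE 0.39, adjusted p = 0.0247). The groups overlapped in neither gene. Zfp692, which binds the AICAR response element of gluconeogenic genes and is phosphorylated by AMPK, went the other way. Its counts were 141, 155 and 114 in Mul1(+/+) and 909, 636 and 149 in Mul1(−/−), so that replicate 3 of the knockout lay within the wild-type range, and its log2 fold change was 1.70 (SE 0.62, adjusted p = 0.0258). These 3 genes were chosen after their values were seen.

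Zfp932 was the only one in the table of 8 listed Zfp genes known for silencing retroelements or imprinted loci. Zfp932 (ENSMUSG00000066613, chromosome 5, 109996521 to 110010411, plus strand) had counts of 164, 236 and 167 in Mul1(+/+) and 501, 758 and 394 in Mul1(−/−), without overlap, a log2 fold change of 1.51 (SE 0.42, adjusted p = 0.0122). Of its transcript stretches of 75 bases, 26.4% also occur in other genes, chiefly its near-copy Gm15446. Of 20 listed gene symbols of the corepressor machinery that KRAB boxes recruit, Trim28 and Setdb1 among them, only Cbx1 is in the table. Cbx1, which encodes HP1 beta, had counts of 1938, 1908 and 1838 in Mul1(+/+) and 3459, 5837 and 2264 in Mul1(−/−), a log2 fold change of 0.92 (SE 0.44, adjusted p = 0.0646). The other 19 symbols were not analysed here.

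Several Zfp genes lie beside one another, and 23 of the 52 were within 1000000 bases of another one, in 9 clusters. In 4 clusters all members had higher means, in 1 all had lower means, and 4 were mixed. On chromosome 2, from 177464733 to 178078476, Zfp970, Zfp972 and Zfp931, which share the promoter block printed above, had log2 fold changes of 1.74, 1.68 and 1.32, and 2 other genes of the table in that span, Gm14323 and Gm14403, were also higher. Zfp931 (ENSMUSG00000078861), with 7 fingers, had counts of 192, 326 and 256 in Mul1(+/+) and 397, 943 and 667 in Mul1(−/−) (SE 0.45, adjusted p = 0.0213). Zfp972, annotated with a KRAB box and no fingers, was much lower, with counts of 8.43, 7.08 and 14.7 and 36.5, 41.6 and 23.7 (SE 0.43, adjusted p = 0.0107). These neighbours share 75-base stretches with other genes to 30.4%, 12.6% and 43.4% for Zfp970, Zfp931 and Zfp972, so their values are uncertain where counting could divide or drop such reads.

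On chromosome 4, from 146449023 to 147513486, Zfp992, Zfp993 and Zfp991 had log2 fold changes of 1.08, 1.34 and 1.70, whereas Zfp982 at the end of the cluster had −1.47. The cluster lies 8006758 to 9050152 bases from Mul1 on the same chromosome. Zfp992 had counts of 240.2, 532 and 357 in Mul1(+/+) and of 1695, 1302 and 195 in Mul1(−/−), so that the third knockout library was below all 3 wild-type libraries while the first 2 were above them (SE 0.74, adjusted p = 0.176). Zfp993 had counts of 27.0, 62.9 and 44.9 in Mul1(+/+) and of 243, 147 and 36.0 in Mul1(−/−), and replicate 3 of the knockout lay within the wild-type range (SE 0.66, adjusted p = 0.0709). Zfp982, with counts of 307, 592 and 514 in Mul1(+/+) and 119.8, 141 and 255 in Mul1(−/−), was lower in all 3 knockout libraries (SE 0.45, adjusted p = 0.0161). Zfp993, Zfp991 and Zfp992 share 78.7%, 75.9% and 34.5% of their 75-base stretches with other genes, the highest shares in the family apart from Zfp972.

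On chromosome 7, which holds 14 Zfp genes of the table, Zfp109, Zfp574 and Zfp526, between 24227572 and 25227507, had log2 fold changes of −2.24, −1.48 and −2.28. Zfp109 had counts of 137, 107 and 153 in Mul1(+/+) and 24.8, 8.57 and 87.0 in Mul1(−/−), the widest spread on the log2 scale among the lower genes (SE 0.69, adjusted p = 0.0161). Another 5 genes of the table lie in that span, of which 3 had higher means. On chromosome 17, Zfp54, Zfp948 and Zfp760, between 21423227 and 21725636, had log2 fold changes of 1.08, 1.37 and 1.17. In the pairs Zfp932 and Zfp605, Zfp606 and Zfp551, and Zfp14 and Zfp790, neighbours went in opposite directions, at 1.51 and −1.36, 1.09 and −1.54, and 2.20 and −1.29. The members of these clusters outside the named rises and falls were chosen after their values were seen.

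Over the whole family, 9 Zfp genes share 10% or more of their 75-base stretches with other genes, and 8 of these 9 had higher means, none past the threshold. The 36 that share less than 1% divided into 17 higher and 19 lower, among them 13 higher and 6 lower KRAB genes. Of all 52 Zfp genes, 16 overlap a gene on the opposite strand. The part of divided reads in these directions was not tested.

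The third Mul1(−/−) library was the one nearest to the wild type in 38 of the 52 Zfp genes, including 25 of the 30 higher and 13 of the 22 lower ones. The higher genes differed from the wild-type mean by medians of 1.79, 1.81 and 0.82 log2 units in knockout libraries 1, 2 and 3, and the lower genes by −1.36, −1.89 and −1.22. Pooled over higher and lower genes with their signs kept, the medians were 1.02, 1.33 and 0.23 over the 52 Zfp genes. Over all 3542 genes of the table they were 0.98, 1.28 and 0.38, and over its 2849 protein-coding genes −0.62, −0.97 and −0.45. A pooled median depends on the share of higher genes and does not measure the size of the difference. Whether the smaller difference in library 3 was particular to the Zfp genes was not tested. The 4 genes whose groups overlapped, Zfp788, Zfp692, Zfp992 and Zfp993, were all higher genes in which replicate 3 reached into or below the wild-type range. Without this library 42 of the 52 Zfp genes passed the threshold, as did 2673 of the 3542 genes of the table. Without Mul1(−/−) replicate 2, 0 Zfp genes and 10 genes of the table passed, with 37 and 2740 at an unadjusted p under 0.05. Without Mul1(+/+) replicates 1, 2 and 3 in turn, 0 Zfp genes passed each time, beside 25, 13 and 46 genes of the table, with 32, 44 and 36 Zfp genes and 2471, 3039 and 2514 genes of the table at an unadjusted p under 0.05. In every one of these fits the same 30 genes had higher means.

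**Figure D4:**
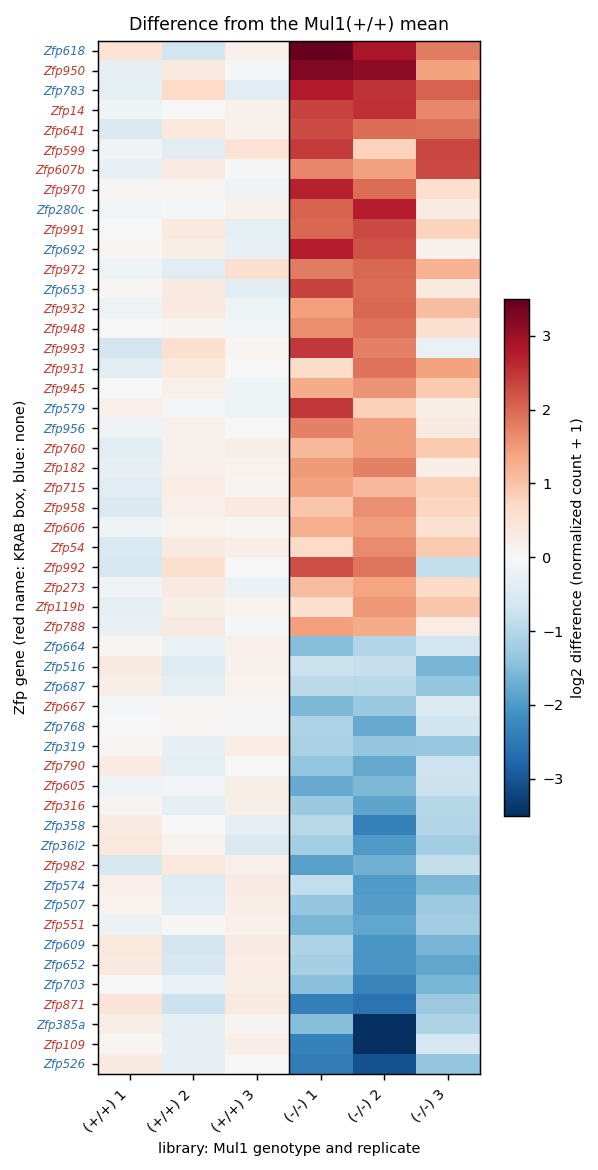
Difference of each library from the Mul1(+/+) mean, in log2 units of normalized count + 1, for the 52 Zfp genes in the order of their fold change. The column of Mul1(−/−) replicate 3 is paler than those of replicates 1 and 2 in the upper rows, with medians of 0.82 against 1.79 and 1.81 for the 30 higher genes. Over all genes of the table, higher and lower ones pooled with their signs kept, the median was 0.38 in replicate 3 against 0.98 and 1.28.

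Markers of other liver cells are given beside these results, of which Epcam and Spp1 alone passed the threshold. Of 6 bile duct markers 4 are in the table, Epcam, Spp1, Krt19 and Krt7, all with higher means. Their summed counts ran from 1292 to 1891 in Mul1(+/+) and from 4878 to 5100 in Mul1(−/−). Spp1 made up most of these sums, at 3336, 4304 and 4613 in Mul1(−/−). Krt19 had 70.0, 92.1 and 107 in Mul1(+/+) and 1151, 176 and 147 in Mul1(−/−). The 2 stellate cell and fibroblast markers in the table of 6, Col3a1 and Dcn, summed to 4314 to 5241 and 8482 to 28580.2. The 2 endothelial markers of 6, Pecam1 and Clec4g, summed to 3352 to 3910 and 1184 to 2140.4, and Hnf4a with Apob to 147515 to 240723 and 85970 to 91705. Apob made up most of the last sums, and Hnf4a had 45865, 25933 and 37051 in Mul1(+/+) and 11108, 5070 and 18325 in Mul1(−/−). Listed markers of Kupffer cells, lymphocytes and adipocytes are not in the table. In bulk liver, fewer cells of a type and less RNA per cell cannot be told apart, and the part of cell makeup in the Zfp values was not tested.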

How the data were processed

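mRNA from liver of 3 Mul1(+/+) and 3 Mul1(−/−) mice was measured. Libraries were made and sequenced for the authors by a company, the groups were compared with DESeq2, and 1 table of selected genes was deposited. The deposited library values are normalized read counts, the authors having divided the counts by 1 factor per library. The table also holds the authors' log2 fold changes and the authors' p-value and adjusted p-value columns, which were not used here. Alignment and counting tools, build, annotation and the use of strand are not given in the sources used here. The total of each library was not used here. The libraries of a group were taken as separate mice, as the study's methods state n per group. A limma p-value sets the difference between genotypes against the spread between these mice, which limma draws towards the spread of all genes of the table.

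The value of 1 read was recovered from the low values of each library (100% whole multiples of it under 10000, within 0.1 read) and served for read totals. A pseudocount of 1 was added, log2 was taken, and the groups were compared by limma (3.58.1, R 4.3.3) in a model of genotype alone, without a filter. A fold change on this scale understates that of genes with few reads. limma was first run on simulated data in which 200 genes changed by more than any Zfp gene here. That run does not bear on the calls in these data. Python 3.11.15 with pandas 2.3.3 and scipy 1.17.1 did the rest.

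All 52 Zfp genes and 3529 genes of the table were matched to GENCODE M21 (GRCm38), and the authors' build may be another. Length and GC content are those of the longest coding transcript. C2H2 fingers were counted by pattern in the translations of all coding transcripts of a gene, and the highest count was kept. A gene was given a KRAB box if HMMER 3.4 found it in any of these translations (E-value under 1e-05, profile from 167 windows). Promoters are from RefSeq. Genes were named for passing the threshold without overlap, for the 5 highest levels, the 3 highest levels per kilobase, or a role list, and the others after their values were seen. The Zfp genes, lists and tests were chosen with earlier results of these data known. Alternatives were other pseudocounts, a filter, rescaled libraries, limma-trend, another threshold, a replicate block and leaving out single libraries.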

Additional observations from a re-analysis of the deposited data

How the results depend on the processing

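All 52 Zfp genes kept their direction in all 14 alternatives that were run, so 30 had higher means in each. The filter, limma-trend and the replicate block leave every fold change as it was, so direction could not change in them. The other alternatives act on genes that the authors had selected on the same contrast. The number past the threshold did not hold. From 9 it went to 15 (7 lower) with a pseudocount of 5, and to 24 (10 higher, 14 lower) with limma-trend. Rescaling by the median ratio gave 19 (15 lower) and a median log2 fold change of 0.42 against 1.08, and rescaling by the total of the table gave 16 (11 lower), while leaving the mitochondrial genome out of that total left 1 lower gene. With an adjusted p under 0.05 it was 49 (27 higher, 22 lower). Leaving out 1 library at a time gave 0 to 42 Zfp genes (0 to 23 higher, 0 to 19 lower), 42 without Mul1(−/−) replicate 3 and 0 without Mul1(−/−) replicate 2 or any Mul1(+/+) library. Without Mul1(−/−) replicate 1 it was 7, and Zfp607b and Zfp871 missed the threshold. Zfp618, Zfp950, Zfp783, Zfp14 and Zfp526 missed it only with the replicate block and in the 4 left-out fits in which 0 passed.

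Over all 3542 genes the count moved from 854 alongside. It was 1399 (567 lower) with a pseudocount of 5 and 1869 (964 higher, 905 lower) with limma-trend, and a pseudocount of 0.5 left 172 lower genes. Rescaled by the median ratio it was 236 higher and 1031 lower, by the table's total 1343 (724 lower), and without the mitochondrial genome 171 lower. With an adjusted p under 0.05 it was 3380 (1877 higher, 1503 lower), and with 1 library left out 10 to 2673 (9 to 1595 higher, 1 to 1078 lower). The cause of these shifts was not tested.

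With the replicate block, 0 Zfp genes and 0 genes of the table passed by limma, 0 higher and 0 lower, with 49 Zfp genes and 3314 genes at an unadjusted p under 0.05. The deviations of same-numbered libraries from their group means correlated at 0.0218, 0.352 and 0.0541. With 3 libraries per group and genes selected on genotype, these values cannot show whether the replicate numbers pair the samples. Of the knockout libraries, replicate 2 alone correlated best with the wild-type library of its own number. The count tests planned with edgeR and DESeq2 on recovered reads were not run. Depth limits the low genes most, since the smallest count of a Zfp gene in a library was 3 reads, and counting error alone is large at such counts.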
